A study of Mus musculus with 2 samples.

Results

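Mrc1, F13a1, Cd163, Folr2, Lyve1, Stab1 and Maf, which are widely used to mark resident and repair macrophages, were followed by their symbols through 2 single-nucleus RNAseq libraries of the injured mouse tibia. They are 7 of the 32285 genes counted, and all 7 were found in both libraries. One library was made from periosteum scraped together with the hematoma 1 day after an open tibial fracture without fixation (day 1 post-fracture). The other was made from the same tissues 5 days after a musculoskeletal traumatic injury (MTI), in which the fracture is combined with crushing of the muscles around the tibia. Both used C57BL6 mice without any further allele or treatment given in the labels, nuclei pooled from 3 or 4 injured tibias and sorted on the nuclear dye Sytox-AAD. The libraries differ in both day and injury and no comparison was made between them, and with 1 library each there is no replicate and no test. Intervals in parentheses are 95% intervals (exact Poisson for levels, exact Clopper-Pearson for shares, exact conditional binomial for ratios) and cover counting error only.

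Resident macrophages take up debris, dying cells and plasma proteins through scavenger and sugar-binding receptors, and tissue injury brings in monocytes that become macrophages with a changing mix of these receptors. Mrc1 encodes the mannose receptor CD206, Cd163 the receptor for hemoglobin bound to haptoglobin, Stab1 the scavenger receptor stabilin-1, Folr2 a folate receptor and Lyve1 a hyaluronan receptor that lymphatic endothelium also carries. F13a1 encodes the A subunit of coagulation factor XIII, which crosslinks fibrin, and Maf encodes the transcription factor c-Maf, which acts in macrophages. Arg1 encodes arginase 1, which breaks down arginine and marks a state of macrophages after injury.

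The stretches of 250 bases before the start of Mrc1, F13a1, Cd163 and Stab1 are shown as examples. Mrc1, F13a1 and Cd163 recur in the comparisons below between macrophage clusters and with Arg1, where Stab1 differed less. The stretches are from RefSeq on GRCm38.p6 (mm10), the build of the counts, and are written 5′ to 3′ on the strand of the gene. Capitals mark TGCTGA, the core of a Maf recognition element, and GAGGAA, the core bound by the myeloid factor PU.1, on either strand. The windows are Mrc1 at chr2:14229164-14229413 (+), F13a1 at chr13:37050245-37050494 (-), Cd163 at chr6:124304401-124304650 (+) and Stab1 at chr14:31168642-31168891 (-).
Mrc1: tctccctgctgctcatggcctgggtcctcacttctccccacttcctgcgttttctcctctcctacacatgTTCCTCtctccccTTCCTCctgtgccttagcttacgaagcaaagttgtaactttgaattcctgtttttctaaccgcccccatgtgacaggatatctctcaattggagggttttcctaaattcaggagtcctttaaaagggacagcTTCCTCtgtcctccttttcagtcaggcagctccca
F13a1: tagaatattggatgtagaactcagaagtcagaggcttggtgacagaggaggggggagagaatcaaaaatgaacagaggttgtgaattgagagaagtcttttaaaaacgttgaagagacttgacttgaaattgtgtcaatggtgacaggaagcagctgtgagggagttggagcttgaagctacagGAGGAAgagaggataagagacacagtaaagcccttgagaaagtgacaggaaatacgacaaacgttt
Cd163: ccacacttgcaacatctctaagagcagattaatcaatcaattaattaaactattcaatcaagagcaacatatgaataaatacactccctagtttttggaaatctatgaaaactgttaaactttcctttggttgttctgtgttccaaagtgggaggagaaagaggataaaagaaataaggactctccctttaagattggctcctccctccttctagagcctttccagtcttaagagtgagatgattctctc
Stab1: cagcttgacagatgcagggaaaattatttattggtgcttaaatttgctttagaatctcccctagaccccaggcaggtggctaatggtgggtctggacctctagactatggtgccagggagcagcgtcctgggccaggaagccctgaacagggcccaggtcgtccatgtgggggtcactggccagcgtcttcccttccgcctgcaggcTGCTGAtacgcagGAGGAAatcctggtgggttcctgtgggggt

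The Mrc1 window held 3 matches to the PU.1 core, at 180, 167 and 35 bases before the start. Distances count from the RefSeq start. It differs from the annotated gene start given below by 22 bases for Mrc1, 5 for Cd163 and 4 for Folr2. For Mrc1 the end of the window thus lies within the annotated gene. F13a1 held 1 at 66 bases, and Stab1 held 1 at 30 bases beside the only Maf core of these 4 windows, at 43 bases. The Cd163 window held neither. Folr2, whose window is not printed, had a Maf core at 220 bases. Lyve1 and Maf had no entry. Of 32851 RefSeq windows of this length, 16.1% held TGCTGA, 23.3% held GAGGAA and 3.68% held both, so that these letters are common in such windows. A match is a description of the letters and not a binding site.

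In the annotation of mm10 used here, Mrc1 lies at chr2:14229392-14332057, F13a1 at chr13:36867178-37050244, Cd163 at chr6:124304656-124330527, Folr2 at chr7:101839988-101857194, Lyve1 at chr7:110850607-110863239, Stab1 at chr14:31139013-31168641 and Maf at chr8:115682942-115707794. The microRNA Mir511 lies on the same strand within Mrc1. Nt5dc2 overlaps Stab1, Gm15655 overlaps Maf, Gm49144 and Gm30489 overlap F13a1, and Gm10602 and Gm45319 overlap Folr2, all on the other strand. The counts include intronic and exonic reads, and long genes offer more intronic sequence, so the levels of different members are ranked below only per kb of gene span.

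The day 1 library held 9389014 UMIs (unique molecular identifiers, 1 per captured RNA molecule) in 48987 barcodes. After MTI there were 1446 barcodes with 5899407 UMIs. The filters of the methods left 2405 nuclei with a median of 409 UMIs at day 1 and 1127 nuclei with a median of 2364 UMIs after MTI. Both libraries shared 33 barcodes, of which 15 were retained in both, 1.33% of the retained MTI nuclei. Nuclei after MTI were clustered without the 7 members, Arg1 and related macrophage genes, and each cluster was named, as X-like, by its marker genes. The names were rebuilt and can differ from those of the study.

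After MTI, 277 nuclei (24.6%, median 4108 UMIs) were macrophage-like, and they carried 73.4% of the UMIs of the 7 members on 29.2% of all UMIs. Each of the 4 clusters behind them passed 7 of the 8 macrophage markers, and their myogenic markers stood at 130 CPM (UMIs per 1000000 UMIs) against 50287 CPM in myogenic-like nuclei. The 7 members together reached 4979 CPM (4857 to 5104) in macrophage-like nuclei, 6.69 times (6.38 to 7.02) their level in the other 850 nuclei. Within those 850, the 58 monocyte-like nuclei stood higher than macrophage-like nuclei, at 5805 CPM (5444 to 6183). Without the 1 monocyte-like nucleus with the most member UMIs, that level was 4791 CPM (4456 to 5145). F13a1 made up 689 of the 965 member UMIs in monocyte-like nuclei and 3092 of the 6303 in macrophage-like nuclei. Each other member had a lower point level in monocyte-like than in macrophage-like nuclei, so the higher sum is due to F13a1 alone. Among 12746 genes with at least 20 UMIs, 11.0% were at least 2 times higher in macrophage-like nuclei, with a median ratio of 0.849. All 6 members with at least 20 UMIs were, with a median of 6.17, and Lyve1 had too few UMIs to be judged.

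Mrc1 showed the largest ratio, 1193 CPM (1133 to 1255) in macrophage-like nuclei and 10.7 times (9.47 to 12) its level elsewhere. F13a1 stood at 2443 CPM (2357 to 2530), a ratio of 6.55 (6.12 to 7.02). Stab1, at 714 CPM (668 to 762), had a ratio of 6.67 (5.87 to 7.59). The intervals of F13a1 and Stab1 overlap, while that of Mrc1 lies above both. Maf stood at 577 CPM (536 to 620) and its ratio was 4.09 (3.63 to 4.62). Cd163 and Folr2 had few UMIs, at 34.0 CPM (24.6 to 45.8) and 18.2 CPM (11.5 to 27.3), with ratios of 5.80 (3.27 to 10.7) and 3.99 (1.97 to 8.38). These ratios rest on 43 and 23 UMIs in macrophage-like nuclei, and the interval of Cd163 overlaps that of Mrc1. Lyve1 had 3 UMIs in all retained nuclei, 1 in a macrophage-like nucleus and 2 in skeletal lineage-like nuclei. That is no more than the 3 counts taken as the floor, so that no fold is given for this hyaluronan receptor. With nuclei of at least 500 genes only, the ratios of Mrc1 and F13a1 fell to 6.71 and 4.04, and over the alternatives that of Cd163 ranged from 4.55 to 15.1. For scale, the macrophage markers Adgre1 and Csf1r had ratios of 7.87 and 3.39.

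Per kb of gene span, the order of the members changed. Stab1 (24.1 CPM per kb) and Maf (23.2) came first in macrophage-like nuclei, before F13a1 (13.3) and Mrc1 (11.6). Cd163 (1.31), Folr2 (1.06) and Lyve1 (0.0625) followed far below, and Arg1 stood at 63.1 CPM per kb. The spans were 183 kb for F13a1, 103 kb for Mrc1 and at most 29.6 kb for the other members.

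**Figure D1:**
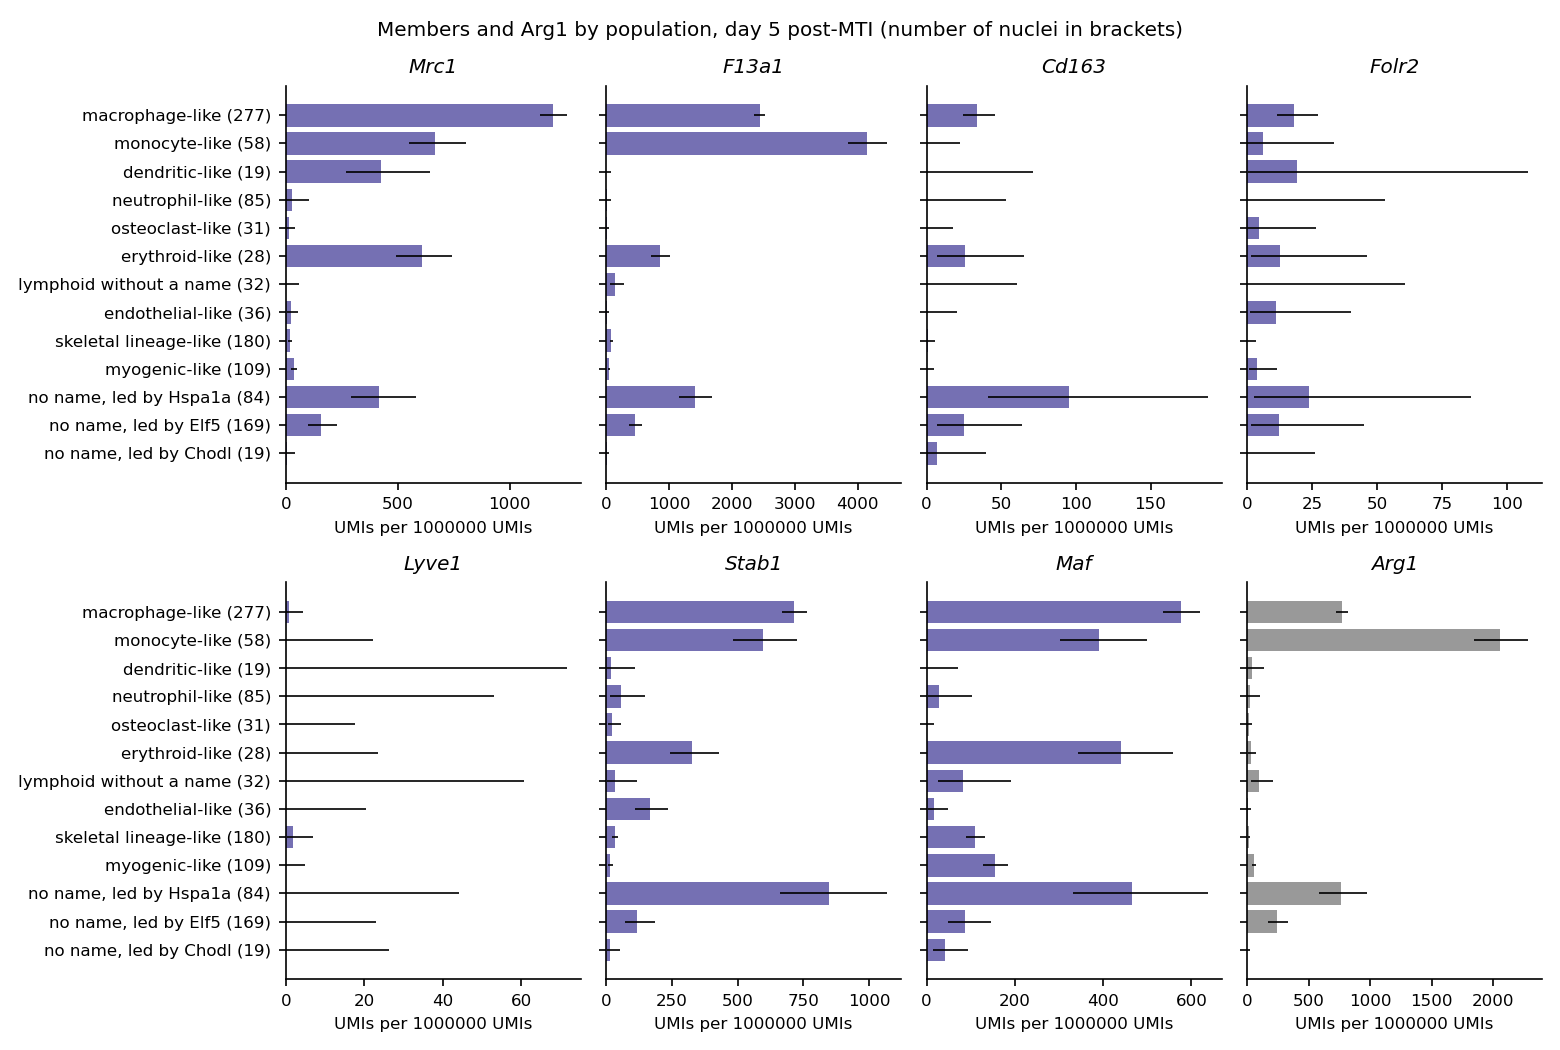
Level of each member and of Arg1 (x axis, UMIs per 1000000 UMIs, 1 scale per gene) in each population of the day 5 post-MTI library (y axis, number of nuclei in brackets); bars are levels over the summed nuclei and lines 95% Poisson intervals. Mrc1 at 1193, Stab1 at 714 and Maf at 577 had their highest levels among named populations in macrophage-like nuclei, while F13a1 was higher in monocyte-like nuclei. For Stab1, macrophage-like and monocyte-like nuclei were not told apart, and the Hspa1a-led cluster without a name stood at 848.

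Monocyte-like nuclei (58, median 2398.5 UMIs, led by genes such as Olr1, Osm and the monocyte receptor Ccr2) differed from macrophage-like nuclei in opposite directions for different members. They passed 3 of the 5 monocyte markers, and Ly6c2 had 0 UMIs. Their macrophage markers stood at 3020 CPM, against 3839 CPM in macrophage-like nuclei. How far they are monocytes rather than macrophages was not tested. F13a1 was higher in monocyte-like nuclei, 4145 CPM and 1.70 times (1.56 to 1.84) the macrophage level, as was Arg1 at 2.65 times (2.34 to 3.00). Mrc1 was lower, 668 CPM and a ratio of 0.560 (0.457 to 0.679), and Maf had a ratio of 0.678 (0.518 to 0.875). A single nucleus held 71 of the 111 Mrc1 UMIs and 113 of the 689 F13a1 UMIs. Without it the level of Mrc1 fell to 253 CPM and that of F13a1 to 3641 CPM. Stab1 had a ratio of 0.834 with an interval from 0.671 to 1.03. Cd163 had 0 UMIs there, which by the floor of 3 counts allows up to 18.0 CPM, and Folr2 had 1 UMI and a ratio of 0.331 (0.00804 to 2.04). Of the 6 members tested, 0 were at least 2 times higher and 2 (Cd163 and Folr2) were at most 0.5 times the macrophage level, against 7.99% and 20.4% of 7374 genes.

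The stromal and muscle populations carried little of most members. Skeletal lineage-like, myogenic-like and endothelial-like nuclei together (325, median 4682 UMIs) had 25.4 CPM of Mrc1, 58.8 CPM of F13a1, 38.0 CPM of Stab1 and 118 CPM of Maf. Maf had 109 CPM in skeletal lineage-like and 154 CPM in myogenic-like nuclei. Macrophage-like nuclei exceeded the 3 populations together by 4.88 times (4.21 to 5.68) for Maf, the lowest ratio of the 6 members tested, against 47.0 times (35.5 to 63.7) for Mrc1. Cd163 had the highest ratio, 67.0 (11.4 to 2707), with 1 UMI in the 3 populations. Stab1 was higher in endothelial-like nuclei (166 CPM, 112 to 237) than in skeletal lineage-like (32 CPM) and myogenic-like nuclei (15.8 CPM). Of 85 F13a1 UMIs in skeletal lineage-like nuclei, 29 lay in 1 nucleus. In endothelial-like nuclei Lyve1 had 0 UMIs, which by the floor of 3 counts allows up to 16.6 CPM. Of 6 lymphatic markers, Prox1, Flt4 and Reln were detected there, with 30 UMIs (166 CPM) together, and Mmrn1, Ccl21a and Stab2 were at 0.

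Dendritic-like nuclei (19) held Mrc1 at 427 CPM with no F13a1, but 17 of the 22 Mrc1 UMIs came from 1 nucleus, and without it the level was 107 CPM. Osteoclast-like nuclei (31), which arise from the same myeloid lineage, had 14.3 CPM of Mrc1, 14.3 CPM of F13a1 and 23.8 CPM of Stab1. These rest on 3, 3 and 5 UMIs, and the first and second are at the floor of 3 counts. Neutrophil-like nuclei (85, median 738 UMIs) had 28.7 CPM of Mrc1, 14.3 CPM of F13a1 and 57.4 CPM of Stab1. These rest on 2, 1 and 4 UMIs, and the floor there is 43.0 CPM, above the values of Mrc1 and F13a1. Erythroid-like nuclei (28) carried the members at 2268 CPM together, and their macrophage markers were at 3086 CPM, close to the 3020 CPM of monocyte-like nuclei. A cluster of 84 nuclei led by the stress gene Hspa1a (median 816.5 UMIs) stayed without a name and had 3259 CPM of the members and 2435 CPM of macrophage markers. The part of macrophage RNA in these 2 groups was not tested.

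The 4 macrophage-like clusters differed in their levels of the members. Among the genes allowed in the clustering, those that led cluster I0 (93 nuclei) include Ptgr1, Tnf, Prdx1 and Gclm, genes of inflammation and of the response to oxidants. Cluster I2 (80 nuclei) was led by Dnase1l3, Gpr162, P2ry14 and Cd4. Cluster I3 (69 nuclei) was led by Ednrb, Ccl6 and Ltc4s, and cluster I5 (35 nuclei) by Mmp12, Gpnmb, Fabp4 and Fabp5, genes of matrix breakdown and lipid handling. Over all genes, Ccl8, Cd163 and Vsig4 led I3, and Hmox1 and Arg1 were among the leaders of I0. Their macrophage markers summed to between 3518 and 4355 CPM. The clusters were made from the same nuclei in which the members were counted, so the differences that follow are a description.

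Cluster I3 held 31.9% of all member UMIs on 6.79% of the UMIs, and the members together stood at 9309 CPM, 2.54 times (2.42 to 2.67) the other macrophage-like nuclei. Mrc1 stood at 2712 CPM there, against 988 CPM in I2, 698 CPM in I5 and 532 CPM in I0, a ratio of 3.71 (3.35 to 4.11). F13a1 was at 4715 CPM, against 2679 CPM in I0, 1414 CPM in I5 and 887 CPM in I2, a ratio of 2.69 (2.5 to 2.89). Cd163 was found mostly in I3, with 37 of the 43 UMIs in macrophage-like nuclei and a ratio of 20.3 (8.51 to 58.9). A single nucleus held 11 of these 37 UMIs, and 14 other nuclei held the remaining 26 (89.1 CPM). Folr2 had 12 of 23 UMIs in I3 and a ratio of 3.60 (1.45 to 9.0). Stab1 and Maf differed less, with ratios of 1.42 (1.23 to 1.64) and 1.54 (1.31 to 1.80). Of the 6 members, 4 were at least 2 times higher in I3, with a median ratio of 3.14, against 3.69% of 7020 genes and a median of 0.942. Cluster I3 and the upward direction were chosen after the members' levels had been seen, so this count is a description. For Arg1, I3 had a ratio to the rest of the macrophage-like nuclei of 0.984 (0.844 to 1.14).

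The other clusters were all low in Cd163 and differed in which other members were low. The nuclei that each was compared with include I3, so these counts partly restate the high levels in I3. The downward direction was also chosen after the levels had been seen. In I0, Mrc1 (ratio 0.354) and Cd163 (0.219, 0.0568 to 0.606) were at most 0.5 times the other macrophage-like nuclei, 2 of 6 members against 8.22% of the genes, while F13a1 had a ratio of 1.15 and Arg1 4.35. In I2 these were F13a1 (0.293), Cd163 (0.13, 0.0153 to 0.501) and Folr2 (0.254, 0.0289 to 1.04), 3 of 6 members against 9.49%, while Maf was higher with a ratio of 1.74, and Arg1 was at 0.0786. In I5 Maf (0.353) and Cd163, with 0 UMIs (upper limit of the ratio 0.421), made 2 of 6 members against 11.6%. Mrc1 and F13a1 had ratios of 0.538 and 0.531 there.

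Ordered over all clusters of the library, Mrc1 was highest in I3, then I2 (2.74 times lower than I3, 2.41 to 3.12) and I5, and from I5 down to the Hspa1a-led cluster the neighbours' intervals of the ratio included 1. F13a1 ran from I3 to monocyte-like nuclei, which differed by 1.14 times (1.04 to 1.25), then to I0, with I5 and the Hspa1a-led cluster not told apart. Stab1 in I3, the Hspa1a-led cluster and I0 could not be ordered by neighbours. Maf in I2 and I3 could not either, with a ratio of 1.06 (0.888 to 1.27), and both stood above the Hspa1a-led cluster.

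**Figure D2:**
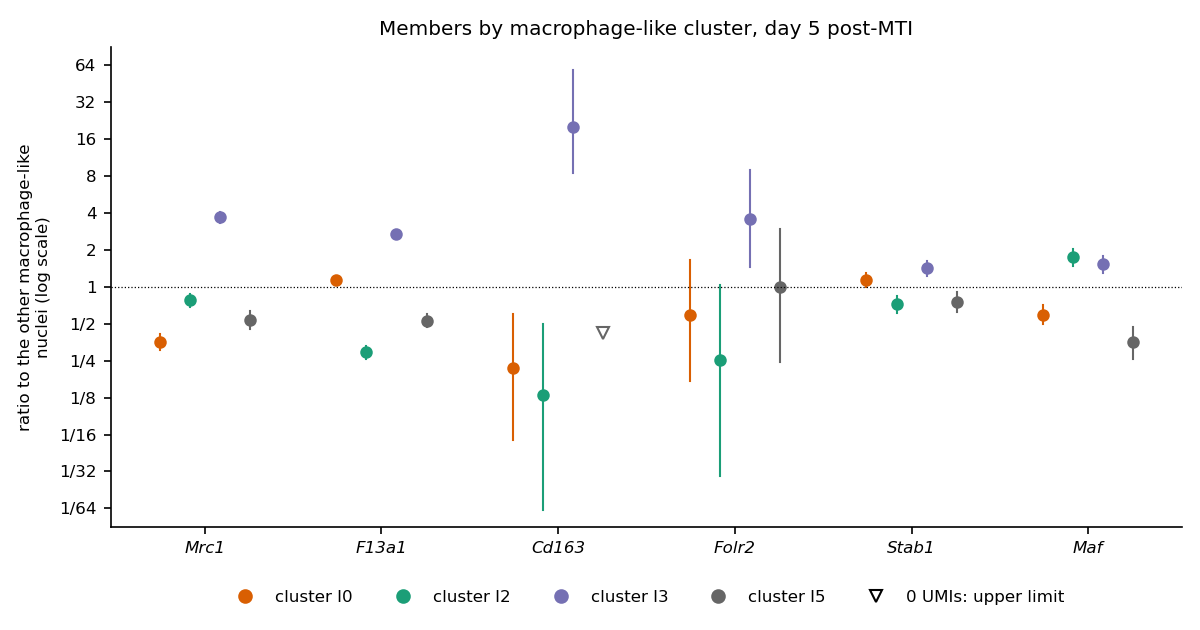
Ratio of each member's level in 1 macrophage-like cluster to the other macrophage-like nuclei (y axis, log scale) for clusters I0, I2, I3 and I5 of the day 5 post-MTI library; points are ratios, lines 95% intervals of counting error, and open triangles upper limits at 0 UMIs. Cluster I3 lies above 1 for all 6 genes shown, from 1.42 for Stab1 to 20.3 for Cd163.

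To compare single nuclei at 1 depth, each was thinned to 1000 UMIs, which left out 4 of the 277 macrophage-like nuclei. F13a1 was then seen in 64.5% (58.5 to 70.1) of the 273 nuclei, Mrc1 in 47.6% (41.6 to 53.7), Stab1 in 42.1% (36.2 to 48.2) and Maf in 40.7% (34.8 to 46.7). Without thinning these shares were 76.9%, 71.1%, 77.3% and 74.4%. In the 281 thinned skeletal lineage-like, myogenic-like and endothelial-like nuclei, F13a1 was in 3.56%, Mrc1 in 1.78%, Stab1 in 4.27% and Maf in 9.25%. Cd163 was in 8 macrophage-like nuclei (2.93%), Folr2 in 3 (1.10%) and Lyve1 in 0.

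Most macrophage-like nuclei carried several members. At 1000 UMIs, 174 of 273 (63.7%, 57.7 to 69.4) had at least 2 different members, 90 (33.0%) had at least 3, and 26 had none. In cluster I3, 62 of 69 nuclei (89.9%, 80.2 to 95.8) had at least 2 and 47 (68.1%) at least 3, and no nucleus lacked all of them. For monocyte-like nuclei the share with at least 2 was 38.6% (22 of 57), and for skeletal lineage-like, myogenic-like and endothelial-like nuclei it was 1.78% (5 of 281). The share rises with the depth chosen, from 41.5% at 500 UMIs to 80.3% at 2000 UMIs.

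F13a1 was found in 73.8% (65.4 to 81.2) of macrophage-like nuclei with Mrc1 and in 55.9% (47.4 to 64.2) of those without it. Stab1 was found in 51.5% (42.6 to 60.4) of nuclei with Mrc1 and in 33.6% (25.9 to 41.9) of those without. Maf was found in 40.0% (31.5 to 49.0) of nuclei with Mrc1 and in 41.3% (33.1 to 49.8) of those without, with intervals that overlap. Of the 12 shares that the 6 pairs of Mrc1, F13a1, Stab1 and Maf give, 10 were higher with the other gene, all but those of Mrc1 with Maf. In 4, those of Mrc1 with F13a1 and of Mrc1 with Stab1, the intervals did not overlap. Both shares of a pair come from the same counts and always point the same way, so the 12 are not independent. Within single clusters this was not uniform. In I3, F13a1 was in 90.9% of nuclei with Mrc1 and 92.9% without, and in I5 in 53.8% and 63.6%, whereas in I0 the shares were 82.8% and 63.5% and in I2 45.5% and 29.5%. All 8 nuclei with Cd163 also had Mrc1, and 7 of them had F13a1. In I3, which held most Cd163 UMIs, both were common without Cd163 too, Mrc1 in 77.4% and F13a1 in 90.3% of such nuclei. In the 143 nuclei without Mrc1 Cd163 was in 0, with an upper limit of 2.55%.

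**Figure D3:**
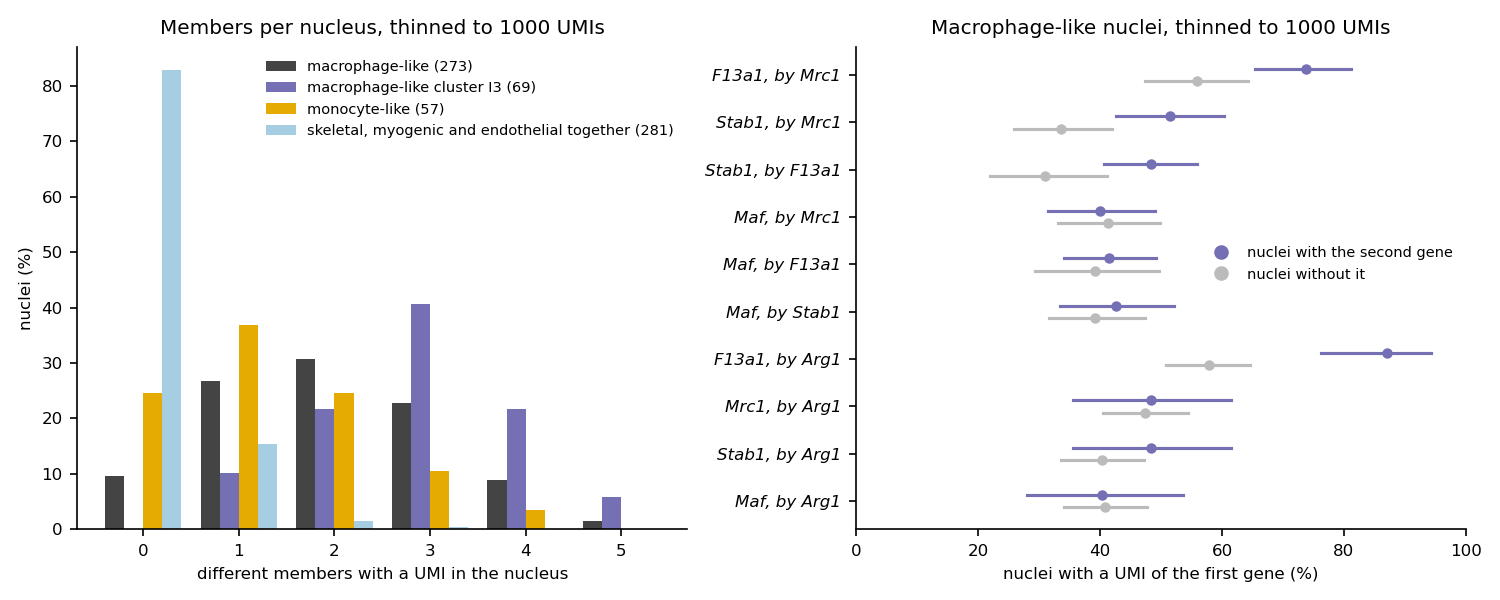
Left, share of nuclei (y axis, percent) by the number of different members with a UMI (x axis) after thinning to 1000 UMIs, in 4 sets of nuclei (numbers in brackets); right, share of the 273 macrophage-like nuclei with a UMI of the first gene (x axis, percent, 95% intervals) among nuclei with and without the second. F13a1 was in 73.8% of nuclei with Mrc1 against 55.9% without, and in 87.1% with Arg1 against 57.8% without.

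Arg1 had a UMI in 89 of the 277 macrophage-like nuclei, and these were unevenly spread, 47 of 93 in I0 (50.5%), 27 of 69 in I3 (39.1%), 9 of 35 in I5 (25.7%) and 6 of 80 in I2 (7.5%). F13a1 was 2.29 times (2.13 to 2.46) higher in Arg1-carrying than in Arg1-free nuclei, 3791 against 1654 CPM. This ratio was 1.70 (1.55 to 1.87) with mitochondrial UMIs under 0.5% and ribosomal UMIs under 2.5%. Cd163 was lower, with a ratio of 0.391 (0.157 to 0.857) that became 0.863 (0.459 to 1.57) when each nucleus was named by its own markers. Folr2 had a ratio of 1.32 (0.516 to 3.25). Thus 1 of 6 members was at least 2 times higher and 1 of 6 at most 0.5 times, against 4.15% and 6.13% of 7020 genes, and their median ratio of 0.889 lay near the 0.957 of those genes. Stab1 (0.914, 0.795 to 1.05) and Maf (0.864, 0.737 to 1.01) had pooled intervals that included 1. Over the alternatives these ratios ranged from 0.732 to 1.115 for Stab1 and from 0.810 to 1.145 for Maf. Single clusters could differ from the pooled value. Maf was higher with Arg1 in I0 (1.57, 1.12 to 2.22), and Stab1 was lower in I2 (0.431, 0.203 to 0.811). The median depth was 4800 UMIs in Arg1-carrying and 3969 UMIs in Arg1-free nuclei. At 1000 UMIs each, F13a1 was in 54 of the 62 nuclei that still had Arg1 (87.1%, 76.1 to 94.3) and in 57.8% (50.8 to 64.6) of those that did not.

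The F13a1 difference held its direction within each cluster, with ratios of 2.82 in I0, 2.46 in I2, 2.54 in I5 and 1.34 (1.20 to 1.49) in I3. The share of nuclei with F13a1 after thinning, however, was 90.0% with Arg1 and 91.8% without in I3. Arg1-carrying nuclei were deeper in I0, I2 and I5, with medians of 4800 against 2913, 7435.5 against 4045 and 10190 against 5264 UMIs. In I3 the medians were 3529 against 3774.5 UMIs. Only 6 nuclei in I2 and 9 in I5 carried Arg1. The part of depth in the ratios within clusters was not tested. For Mrc1 the clusters went opposite ways. It was lower in the Arg1-carrying nuclei of I3 (0.531, 0.451 to 0.622) and I2 (0.647, 0.416 to 0.967), and higher in those of I0 (1.35, 1.01 to 1.80) and I5 (2.30, 1.65 to 3.21). The pooled Mrc1 ratio of 0.756 (0.676 to 0.844) therefore does not describe every cluster. It was 1.02 with the 4 clusters weighted equally and 1.15 (0.95 to 1.40) among nuclei with 1000 to 4000 UMIs. After thinning, Mrc1 was in 48.4% of nuclei with Arg1 and 47.4% of those without.

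With the number of Arg1 UMIs in a nucleus (0 in 188 nuclei, 1 in 24, 2 to 4 in 15, 5 to 9 in 11, 10 or more in 39), F13a1 went from 1654 CPM to 3255, 2823, 4448 and 4179 CPM. Mrc1 went from 1311 CPM to 1413, 1140, 782 and 799 CPM over the same steps. Stab1 was at 737 CPM without Arg1 and 739 CPM with 10 or more UMIs, and stayed between 542 and 739 CPM. Maf had no steady course, at 607, 502, 375, 1008 and 461 CPM. The median depth moved with the last steps, from 3969 UMIs without Arg1 to 5957 UMIs with 10 or more, and its part was not tested.

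**Figure D4:**
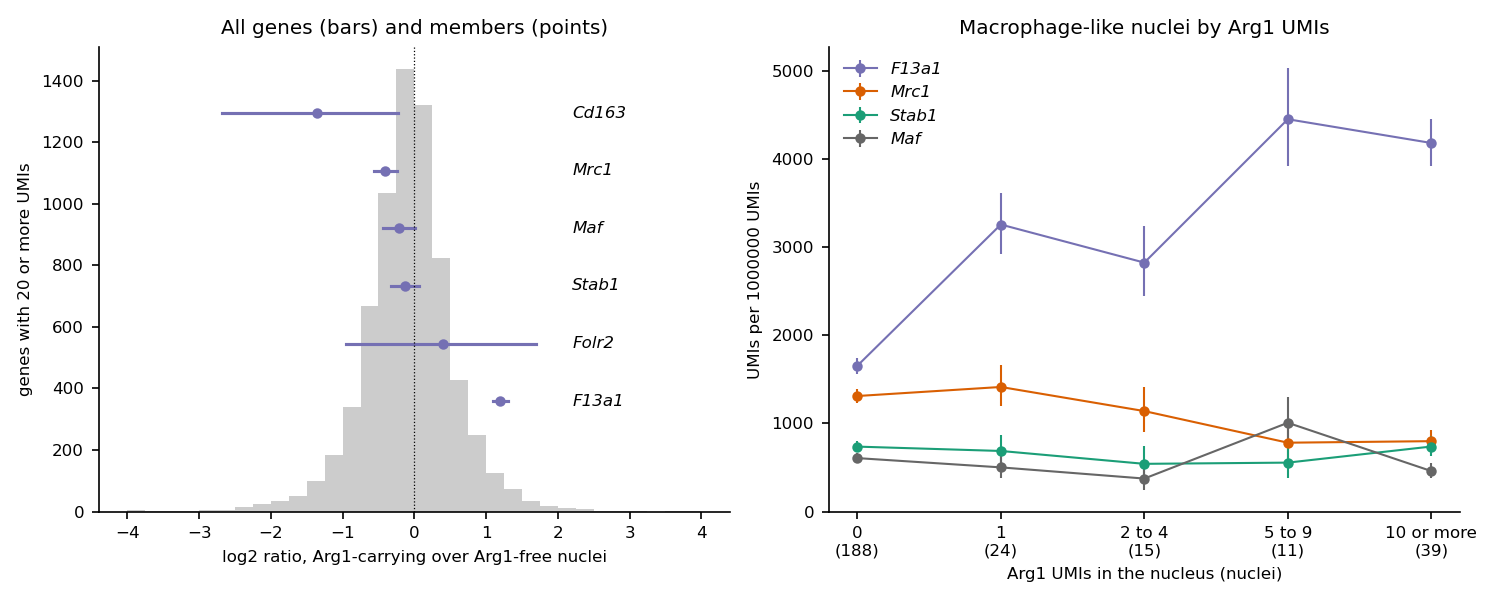
Left, number of genes (y axis) by log2 ratio of Arg1-carrying over Arg1-free macrophage-like nuclei (x axis), with the 6 members as points with 95% intervals placed at arbitrary heights; right, level of 4 members (y axis, UMIs per 1000000 UMIs, 95% intervals) by Arg1 UMIs in the nucleus (x axis, number of nuclei in brackets). F13a1 goes from 1654 without Arg1 to 4179 with 10 or more Arg1 UMIs, while Mrc1 goes from 1311 to 799.

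Other genes of resident macrophages were taken as a list of 30. Of these, 22 had at least 20 UMIs and 18 were at least 2 times higher in macrophage-like nuclei, with a median ratio of 6.52, against 11.0% and 0.849 over all genes tested. Dab2, an endocytic adaptor, had the most UMIs (1707) and a ratio of 5.73 (5.25 to 6.26). Timd4, the phosphatidylserine receptor that marks long-lived resident macrophages, had 0 UMIs in macrophage-like nuclei, as had 3 other genes of the list. Of 21 genes with enough UMIs within macrophage-like nuclei, 9 were at most 0.5 times as high in Arg1-carrying nuclei and 2 at least 2 times, with a median of 0.665, against 6.13% and 4.15% and a median of 0.957 over all genes tested. Igf1, a growth factor, had the lowest ratio (0.194, 0.131 to 0.278) and the complement receptor Vsig4 the highest (2.78, 1.07 to 7.73). The list was highest in I2 for 10 of these genes and in I3 for 9, and 17 of the 21 Vsig4 UMIs lay in I3. The highest level was taken without regard to its interval. The share of all genes that are highest in these clusters was not computed, so this count is a description. The Arg1 ratios were pooled over the clusters, and in I2 only 6 of 80 nuclei carried Arg1. Ratios within clusters were not computed for this list or the lists below, so the part of the clusters was not tested. This list was also chosen with earlier results of these data known.

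Of 13 transcription factors tied to macrophage identity, 12 had at least 20 UMIs and 5 were at least 2 times higher in macrophage-like nuclei, with a median ratio of 1.78, against the 11.0% of all genes. In macrophage-like nuclei, Tcf4 had the most UMIs (1196) and Id3 had 0. Spic, a factor of iron-recycling macrophages, had the lowest Arg1 ratio (0.278, 0.106 to 0.624) and Klf2 the highest (1.86, 0.753 to 4.66), and 2 of 10 genes were at most 0.5 times as high with Arg1, against 6.13%. Another list of 13 genes often reported with Arg1 or inflammation had 12 genes with enough UMIs, of which 3 were at least 2 times higher in macrophage-like nuclei, against 11.0%. With Arg1, 6 of 9 of these genes were at least 2 times higher and 0 at most 0.5 times, with a median ratio of 2.38, against 4.15% and 6.13% of all genes. These genes were chosen for their known tie to Arg1 and with earlier results of these data known, so the count is a description. Vegfa, an angiogenic factor, had the highest ratio (6.03, 3.58 to 10.6) and the matrix protein gene Spp1, which had the most UMIs (1160), the lowest (1.10, 0.975 to 1.24). Retnla had 0 UMIs.

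Across the 16 clusters, the genes whose levels were most like the sum of the members, by Pearson's r of log2(CPM + 10) among 9546 genes, were Ms4a4a (0.941), Cacna1d (0.929), Kcnk13 (0.923), the Fc receptor gene Fcgr1 (0.919) and the protease gene Lgmn (0.916). Those most like Mrc1 were Ms4a4a (0.940), Rap2b (0.936) and Dab2 (0.930), and those most like F13a1 included Ikbke (0.942) and C3ar1 (0.929). Stab1 was closest to Ninj1 (0.949), Abca1 (0.931) and Ftl1 (0.929), and genes close to Maf included Cmklr1 (0.919) and Etv5 (0.902). Cd163 had no gene above 0.718 (Ccl7), before 9030025P20Rik (0.706) and Lipo3 (0.704). Between members, F13a1 with Maf gave 0.892, F13a1 with Stab1 0.885, Mrc1 with Stab1 0.811 and Mrc1 with Maf 0.652. Maf with Stab1 gave 0.775 and F13a1 with Mrc1 0.751. Pairs with Cd163, Folr2 or Lyve1, which had few UMIs, ranged from 0.173 to 0.786. The 16 clusters include those of other cell types. Among macrophage-like clusters members could go opposite ways, as F13a1 (0.293) and Maf (1.74) did in I2. The clusters share 1 library and differ in depth.

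At day 1 post-fracture, the question was whether the members were above their level in the 43464 barcodes with fewer than 200 genes (median 148 UMIs). These barcodes were taken as a measure of the RNA free in the droplets. Retained nuclei had a median of only 268 genes, and whether some of these barcodes hold nuclei was not tested. The 7 members together had 590 UMIs in the retained nuclei, 491 CPM against 544 CPM in those barcodes, a ratio of 0.903 (0.826 to 0.985). It was 1.09 with nuclei of up to 5% mitochondrial UMIs, and 1.01 against barcodes under 100 genes, so that its direction depends on these limits. Of 6 members with at least 20 UMIs, 0 were at least 2 times higher and 1 (Folr2) was at most 0.5 times, against 4.21% and 6.54% of 18806 genes. Their median ratio was 0.761, against 1.05 for those genes.

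Over all retained nuclei of day 1, Maf was the only member with an interval above 1. It had 248 UMIs, 206 CPM in retained nuclei against 137 CPM in barcodes under 200 genes, a ratio of 1.5 (1.30 to 1.73), and 1.66 (1.42 to 1.93) in the 1881 nuclei without an immune marker. With at least 500 genes per nucleus it was 1.24 (0.890 to 1.69), an interval that includes 1. Myogenic markers moved the same way, 55531 CPM in retained nuclei against 43029 CPM, with all 11 markers detected in both. Their part in the Maf level was not tested. F13a1 was lower in nuclei, 120 against 194 CPM and a ratio of 0.616 (0.515 to 0.732), and Stab1 also, 66.5 against 95.4 CPM and 0.698 (0.546 to 0.881). With up to 5% mitochondrial UMIs Stab1 turned to 1.04 (0.891 to 1.20). The 8 macrophage markers were lower too, 392 against 632 CPM. Mrc1 stood at 82.3 against 99.9 CPM (0.824, 0.661 to 1.02, turning to 1.13 with up to 5% mitochondrial UMIs and 1.04 against barcodes under 100 genes), Cd163 at 9.15 against 7.45 CPM (1.23, 0.577 to 2.39), and Folr2 at 3.33 against 8.03 CPM (0.414, 0.109 to 1.12). Lyve1 had 4 UMIs in nuclei and 9 in the barcodes under 200 genes, fewer than the 20 UMIs asked for.

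In 58 retained nuclei with UMIs of at least 2 of 8 immune markers (median 479.5 UMIs), macrophage markers stood at 847 CPM (623 to 1127), with Fcgr1 at 0. That interval includes the 632 CPM of barcodes under 200 genes. Some of the immune markers used to choose these nuclei are also macrophage markers, so a higher level is partly set by the choice. The members reached 23 UMIs in these nuclei, 415 CPM and a ratio of 0.763 (0.483 to 1.15). This ratio turned to 1.36 (1.11 to 1.65) in the 214 such nuclei with up to 5% mitochondrial UMIs, and was 0.363 (0.146 to 0.749) with at least 500 genes. F13a1 had 6 UMIs, Maf 7, Mrc1 4, Stab1 3, Lyve1 2, Cd163 1 and Folr2 0, for which the floor of 3 counts allows up to 54.1 CPM. At this depth, 1 of 6 members was at least 2 times higher (Cd163, with 1 UMI) and 1 at most 0.5 times (Folr2), against 21.0% and 44.2% of 17967 genes, which is no more than the background.

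By the number of genes in a barcode, the summed level of the members was highest between 100 and 300 genes. It was 486 CPM in barcodes under 100 genes, 573 CPM from 100 to under 200 genes, 556 CPM in nuclei from 200 to under 300 genes, 469 CPM from 300 to under 500 and 385 CPM at 500 or more. After thinning to 300 UMIs, 19 of 2136 nuclei (0.890%) had at least 2 members, and 0 of 53 immune-marker nuclei did, with an upper limit of 6.72%. In barcodes under 200 genes with at least 2 immune markers (262), the members stood at 549 CPM.

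**Figure D5:**
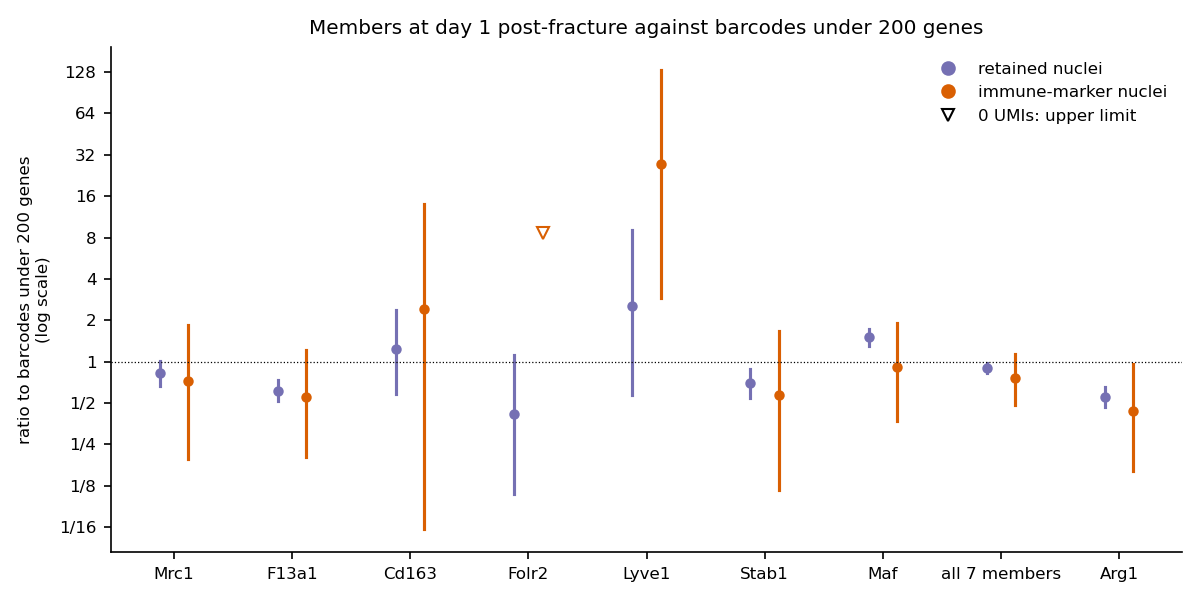
Ratio of each member, their sum and Arg1 in day 1 post-fracture nuclei to barcodes under 200 genes (y axis, log scale), for all retained nuclei and for immune-marker nuclei; points are ratios, lines 95% intervals of counting error, and the open triangle an upper limit at 0 UMIs. Lyve1 rests on 4 and 2 UMIs. Among retained nuclei Maf lies above 1 at 1.5, while F13a1 at 0.616, Stab1 at 0.698 and Arg1 at 0.556 lie below.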

How the data were processed

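The authors counted reads with Cell Ranger 7.0.1 (file header) on mm10 (submitters' processing notes) and deposited the raw counts of UMIs for each gene in each barcode. The labels also name a human reference, but all 32285 identifiers are mouse. CPM and all other values were computed here from these counts.

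Nuclei had 200 to 5000 genes and, after MTI, under 5% mitochondrial and 2% ribosomal UMIs (day 1: 0.5% and 2.5%). The MTI library was clustered with Seurat 5.3.0 in R 4.3.3 on 2000 variable genes (30 components, resolution 1; immune subset 20 and 1.5), leaving out 64 genes, among them the members, Arg1 and the related genes. For a name, 3 or more markers had to have 3 or more UMIs and a ratio of at least 1.5, thresholds set after the clusters had been seen. Myogenic nuclei and doublets were kept, and no doublet caller was run. The members and lists were chosen with earlier results of these data known. Named genes are the members, Arg1, in each related list those with the most and fewest UMIs and the highest and lowest Arg1 ratio, the most alike genes and cluster leaders by fold. Some genes that this rule names are not reported here. Counts and medians of ratios use genes with at least 20 UMIs in both groups together. Gene positions come from GENCODE for mm10, whose release may differ from the authors'. Python 3.11.15, numpy 2.4.6 and scipy 1.17.1 were used, and the computations were tested on simulated data. Alternatives changed filters, clustering, naming, doublet handling, thinning and the definitions of Arg1-carrying nuclei and free RNA. Other datasets of the study were not used here.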

Additional observations from a re-analysis of the deposited data

Results flagged for a closer look

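The 319 barcodes of the day 5 post-MTI library that the filters removed were used in no comparison, but they held the members. The 7 members together had 1328 UMIs there, 850 CPM (805 to 897), against 1980 CPM in the retained nuclei. The median mitochondrial share of these barcodes was 10.8%. The 271 removed on a mitochondrial or ribosomal limit had 1013 CPM and the 21 with over 5000 genes had 649 CPM.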

How the results depend on the processing

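The summed level in macrophage-like nuclei (4979 CPM) moved to 4755 with at least 500 genes, 4650 with the mitochondrial and ribosomal limits of day 1, 4816 when each nucleus was named by its own markers, 5162 without nuclei holding markers of 2 lineages and 3786 without Mrc1. Its ratio to other nuclei (6.69) moved under 5 alternatives, to 4.595 with at least 500 genes, 5.672 with the day 1 limits, 5.963 at resolution 3.0, 5.486 without the deepest 5% of nuclei and 5.992 without Mrc1. The share with at least 2 members (63.7%) was 41.52% at 500 UMIs, 80.33% at 2000 UMIs and 89.53% unthinned. The Arg1 ratio of the sum (1.38) moved to 1.159 with the day 1 limits, 1.644 without Mrc1, 1.476 with Arg1 after thinning and 1.519 at 1000 to 4000 UMIs. The last setting and equal cluster weights turned the Mrc1 ratio to 1.154 and 1.015. F13a1 held 1771 of the 2813 member UMIs in Arg1-carrying nuclei, and a sum without F13a1 was not computed. The pooled ratios of Mrc1, Cd163, Stab1 and Maf were below 1, those of Stab1 and Maf with intervals that included 1, and that of Folr2 was above 1. The alternatives for cluster I3, chosen after seeing the data, moved its ratio at most to 2.173, at resolution 3.0. At day 1 the summed ratio (0.903) turned to 1.085 with up to 5% mitochondrial UMIs and 1.009 against barcodes under 100 genes, and was 0.709 with at least 500 genes. In immune-marker nuclei (0.763) it was 1.361 and 0.3632 under the first and last of these. Stab1 turned to 1.036 with up to 5% mitochondrial UMIs. The cause of these moves was not tested. Over all alternatives the F13a1 ratio with Arg1 stayed between 1.702 and 2.389. Of the alternative values for the main results, 31 stayed within the counting interval and 21 moved outside it. Another 2 turned the direction of a ratio whose interval excluded 1. For single members these numbers were 82, 29 and 3. At day 1 the low depth limits what can be seen of the rarer members. No paired analysis was possible because each group has 1 library.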
